A study of Bos taurus with 22 samples.

Results

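The comparison was that of 5 Fertile with 5 Sub-Fertile Holstein heifers, 10 of the 22 heifers in a series on transcript abundance in circulating white blood cells. Members were chosen by the labels for breed and fertility, and no measured value entered the choice. The other 12 heifers were Angus and were used to ask whether a difference seen in Holstein heifers also differed from that in the other breed. They also served in comparisons of how close heifers were in transcript abundance and in an alternative fit of all 22. Counts of sequenced fragments per gene were given for 27607 genes, of which 21873 had a count in a Holstein heifer and 13072 were tested. A gene was tested where its CPM, the count scaled to 1000000 fragments of that heifer and, for this filter, by TMM, a factor for library composition, exceeded 1 in at least 5 of the 10.

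All 10 animals were purebred Holstein heifers, averaging 12 months of age, and were sampled when they were about to be inseminated for the first time. Every heifer in both groups had gone through the same synchronization of ovulation, with a progesterone insert (CIDR), gonadotropin-releasing hormone when the insert was placed and again at the timed insemination, and prostaglandin F2α. A heifer was Fertile when the first insemination led to a pregnancy and a calf, and Sub-Fertile when it took 4 or more inseminations or no pregnancy followed. The Fertile heifers were numbered 6 to 10 and the Sub-Fertile heifers 1 to 5. Each heifer gave 1 library from white blood cells of the buffy coat after red cells had been lysed, so the spread between libraries holds both the animals and their preparation. The Angus heifers, 5 Fertile and 7 Sub-Fertile, were purebred, averaged 14 months of age and went through a 7-day synchronization with such an insert, and were classed as Sub-Fertile when neither repeated insemination nor a bull gave a pregnancy. Breed, age, synchronization and the Sub-Fertile criterion therefore cannot be told apart between the breeds.

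Circulating white blood cells are a mixture of neutrophils, lymphocytes, monocytes and rarer granulocytes, and the shares of these cells differ from animal to animal. Neutrophils carry receptors for granulocyte colony-stimulating factor and for antibody, and hold enzymes such as matrix metallopeptidase 9 in granules. Cattle also have many circulating γδ T cells, which bear scavenger receptor cysteine-rich co-receptors related to CD163. In such bulk samples, fewer cells of a type and less RNA per cell cannot be told apart.

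The depth ranged from 12393746 fragments in Fertile heifer 7 to 42371919 in Sub-Fertile heifer 2, with medians of 17180109 in Fertile and 17198877 in Sub-Fertile heifers. Sub-Fertile heifer 3 and Fertile heifer 10 were also deep, at 35869046 and 38118108, and the remaining heifers had at most 17682328. The difference between groups in total count was within the spread of the heifers (exact two-sided permutation test over 252 splits, p = 0.579, adjusted p = 0.968 over 6 measures, smallest possible p = 0.00794). Of the principal components made from the 500 genes that varied most, the first held 37.6% and the second 16% of the variance, and on neither did the group means differ beyond the spread of the heifers (exact permutation p = 0.429 and 0.944, adjusted p = 0.968 for both). Heifers 5 and 6, of different groups, were closest in transcript abundance, with a biological coefficient of variation between them of 0.0811, against 0.111 to 0.216 for the other 44 pairs of Holstein heifers. Of the pairs of a Holstein with an Angus heifer, 4 were about as close or closer, at 0.0493 for heifers 8 and 12, 0.0521 for 1 and 11, 0.0615 for 10 and 18 and 0.0829 for 7 and 16, and the next pair was at 0.106. Heifers 7 and 8 are Fertile while 12 and 16 are Sub-Fertile, and the other 2 of these pairs join heifers of like fertility. Whether such pairs share material or handling was not tested.

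No gene passed an adjusted p of 0.05 in the edgeR quasi-likelihood test with Benjamini-Hochberg adjustment, 0 of 13072 genes (0%), and the lowest adjusted p was 0.512. Without adjustment, 1247 genes (9.54%) were under a p of 0.05, of which 635 (4.86%) were higher and 612 (4.68%) lower in Fertile heifers. Under an unadjusted p of 0.01 lay 141 genes (1.08%) that were higher and 93 (0.711%) that were lower. DESeq2's Wald test, run on the same genes, placed 17 genes (0.130%) under an adjusted p of 0.05, 13 higher and 4 lower in Fertile heifers, of which 6 had a symbol (ADGRE3, TMEM205, ASNS, RFC3, BCKDHB and TEX30), and had 1507 genes at an unadjusted p under 0.05. The counts depended on which heifers were included. The genes at an unadjusted p under 0.01 went, when 1 heifer was left out, from 71 (without heifer 3) to 176 (without heifer 10) higher and from 30 (without heifer 3) to 227 (without heifer 10) lower, and leaving out heifer 1, 2, 5, 7 or 9 also moved at least 1 of these counts by more than 1.5 times (87 higher and 152 lower without heifer 1, 79 and 50 without 2, 166 and 215 without 5, 84 and 63 without 7, 101 and 50 without 9). The lower genes at an unadjusted p under 0.05 numbered 342 without heifer 2, 281 without heifer 3 and 965 without heifer 10. The median log2 fold change over all tested genes was -0.0045, close to 0. Every gene described from here on is a difference that did not pass the adjusted test in edgeR, and the values are given as sizes with their errors.

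**Figure D1:**
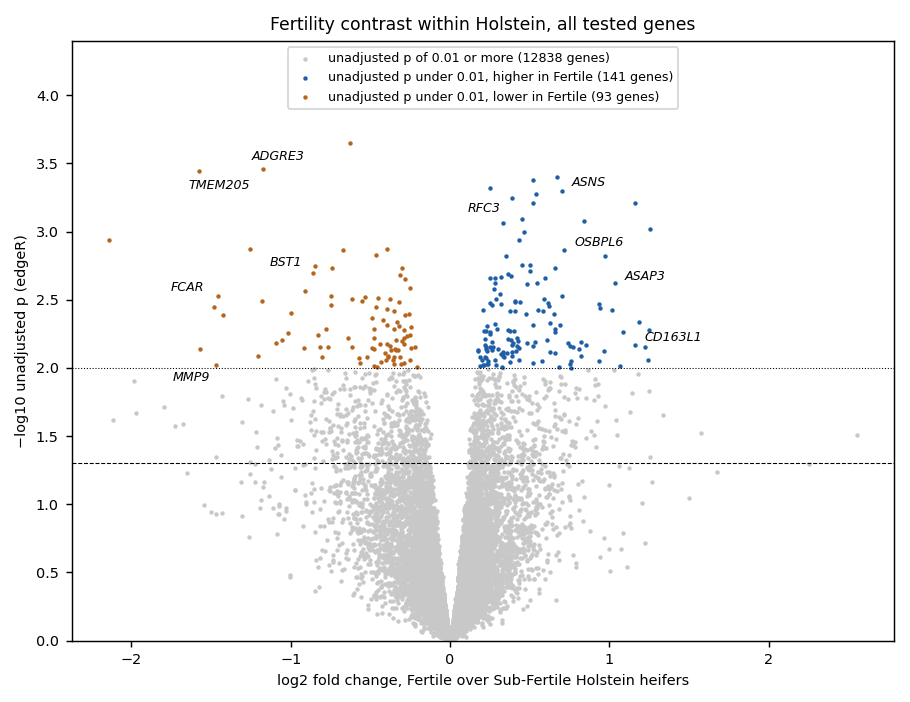
Each point is 1 of the 13072 tested genes, with the log2 ratio of Fertile to Sub-Fertile Holstein heifers across and −log10 of the unadjusted edgeR p upwards, a dashed line at 0.05 and a dotted line at 0.01. The 141 higher and 93 lower genes above the dotted line include ASNS and RFC3 on the right and ADGRE3 and TMEM205 on the left, and none passed adjustment.

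Gene symbols were at hand for 1224 of the 13072 tested genes. They came from an annotation list that the study had ordered by its own fertility test over both breeds, so the genes with a symbol were selected on heifers that include these, and 242 of them (19.8%) had an unadjusted p under 0.05 against 9.54% of all genes. Nothing was read from that excess. The genes described were picked among those with a symbol by their p, by their fold change or as members of gene lists.

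Among genes with a symbol that were higher in Fertile heifers, ASNS, RFC3 and BCKDHB had the smallest p. ASNS, which makes asparagine from aspartate (chromosome 4, 15128694 to 15276513 of the ARS-UCD1.2 assembly), was measured at 17.6, 17, 15.6, 13.3 and 17 CPM in Sub-Fertile heifers 1 to 5 and at 30.1, 23.1, 18.7, 32.5 and 26.9 CPM in Fertile heifers 6 to 10. Every Fertile heifer was above every Sub-Fertile heifer, although heifer 8 was above heifer 1 by little. The means were 26.2 ± 5.49 CPM in Fertile and 16.1 ± 1.74 CPM in Sub-Fertile heifers (SD, n = 5 each), a ratio of 1.63. Fertile over Sub-Fertile, ASNS stood at a log2 fold change of 0.71 ± 0.15 (SE; adjusted p = 0.512 in edgeR and 0.0252 in DESeq2).

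BCKDHB, a subunit of the mitochondrial enzyme that breaks down branched-chain amino acids (chromosome 9, 19804029 to 20074759), had 11, 9.70, 10.1, 10.3 and 10.7 CPM in the Sub-Fertile and 12.6, 12.7, 13.8, 14.4 and 16.4 CPM in the Fertile heifers. The groups did not overlap, and the Sub-Fertile heifers lay within a narrow band. For BCKDHB the log2 fold change was 0.44 ± 0.10, with an adjusted p of 0.512 in edgeR and 0.0318 in DESeq2. RFC3, a subunit of the clamp loader that places PCNA on DNA (chromosome 12, 27378900 to 27396278), had 17, 17.9, 16.9, 18.3 and 19.9 CPM in Sub-Fertile and 20.4, 24.4, 23.2, 26.1 and 28.6 CPM in Fertile heifers. Again the lowest Fertile heifer, 6, stood above the highest Sub-Fertile heifer, 5. The log2 fold change of RFC3 was 0.45 ± 0.099 (adjusted p = 0.512 in edgeR and 0.0318 in DESeq2).

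GATA3 and LAG3, which have roles in T cells, also had higher means in Fertile heifers. GATA3, a transcription factor of T cell development (chromosome 13, 15906719 to 15935286), had 44.5, 55.2, 49.7, 59.6 and 67.5 CPM in Sub-Fertile and 72.7, 90.5, 72.8, 65.9 and 88.4 CPM in Fertile heifers. Sub-Fertile heifer 5 was above Fertile heifer 9, and the other heifers were ordered by group. On the log2 scale GATA3 differed by 0.50 ± 0.12 (adjusted p = 0.512). LAG3, an inhibitory receptor of activated T cells (chromosome 5, 103666048 to 103672761), had 46.3, 30.3, 32.2, 31.2 and 37.7 CPM in Sub-Fertile and 44.6, 74.9, 42.6, 53.1 and 57.4 CPM in Fertile heifers. Sub-Fertile heifer 1 was above Fertile heifers 6 and 8, and heifer 7 was the highest. edgeR estimated a log2 fold change of 0.62 ± 0.17 (adjusted p = 0.512). Its list, for the T cell receptor and co-stimulation, had 3 genes with a symbol and a median log2 fold change of 0.33. Only LAG3 among them had an unadjusted edgeR p under 0.05.

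CD163L1 had the largest fold change among the higher genes with a symbol at an unadjusted p under 0.01. It encodes a scavenger receptor cysteine-rich protein (chromosome 5, 103022590 to 103086215). It had 22.1, 56.5, 35, 50.6 and 82.3 CPM in Sub-Fertile and 92, 190.4, 86.6, 69.4 and 114 CPM in Fertile heifers, so that Sub-Fertile heifer 5 was above Fertile heifer 9 and the 2 highest were heifers 7 and 10. CD163L1 came out at 1.16 ± 0.35 on the log2 scale, and between the lowest and highest value with 1 heifer left out it ran from 0.88 to 1.42. In cattle this gene has close relatives among the WC1 co-receptors of γδ T cells, so the counting could have divided fragments between copies and the level is uncertain.

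ASAP3, a GTPase-activating protein for Arf proteins (chromosome 2, 129367152 to 129417868), had 2.32, 2.12, 1.90, 3.43 and 2.97 CPM in Sub-Fertile and 4.48, 4.92, 3.72, 4.02 and 8.53 CPM in Fertile heifers. Heifer 10 stood far above the other Fertile heifers, and the groups did not overlap. Fertile over Sub-Fertile, ASAP3 stood at a log2 fold change of 1.04 ± 0.27, and 0.76 without heifer 10. OSBPL6, an oxysterol-binding protein relative (chromosome 2, 18481775 to 18696841), had 7.87, 5.26, 7.78, 7.73 and 7.21 CPM in Sub-Fertile and 12.6, 14.9, 9.76, 8.99 and 12.5 CPM in Fertile heifers, with heifer 2 the lowest of all. For OSBPL6 the log2 fold change was 0.72 ± 0.17. AMIGO2, a neuronal-type adhesion molecule with an immunoglobulin domain (chromosome 5, 33169556 to 33172868), had 14, 17.1, 18.3, 18.8 and 17 CPM in Sub-Fertile and 26.3, 33.4, 21.1, 20.6 and 23.5 CPM in Fertile heifers, with heifer 7 the highest and a log2 fold change of 0.55 ± 0.14.

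Of the remaining higher genes with the smallest p, TEX30 was at 0.36, C2H2orf76 at 0.49, TPST1, a Golgi enzyme that sulfates tyrosines, at 0.59, DGCR6L at 0.25 and UFC1, the conjugating enzyme of the ubiquitin-like protein UFM1, at 0.28 on the log2 scale. The groups did not overlap for TEX30, C2H2orf76, TPST1 and DGCR6L, and they touched for UFC1, where Fertile heifer 7 and Sub-Fertile heifer 5 were both near 81.4 CPM. Over all tested genes, 125 (0.956%) did not overlap with Fertile heifers higher and 55 (0.421%) with Fertile heifers lower. TEX30 had an adjusted p of 0.0318 in DESeq2 and 0.512 in edgeR.

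**Figure D2:**
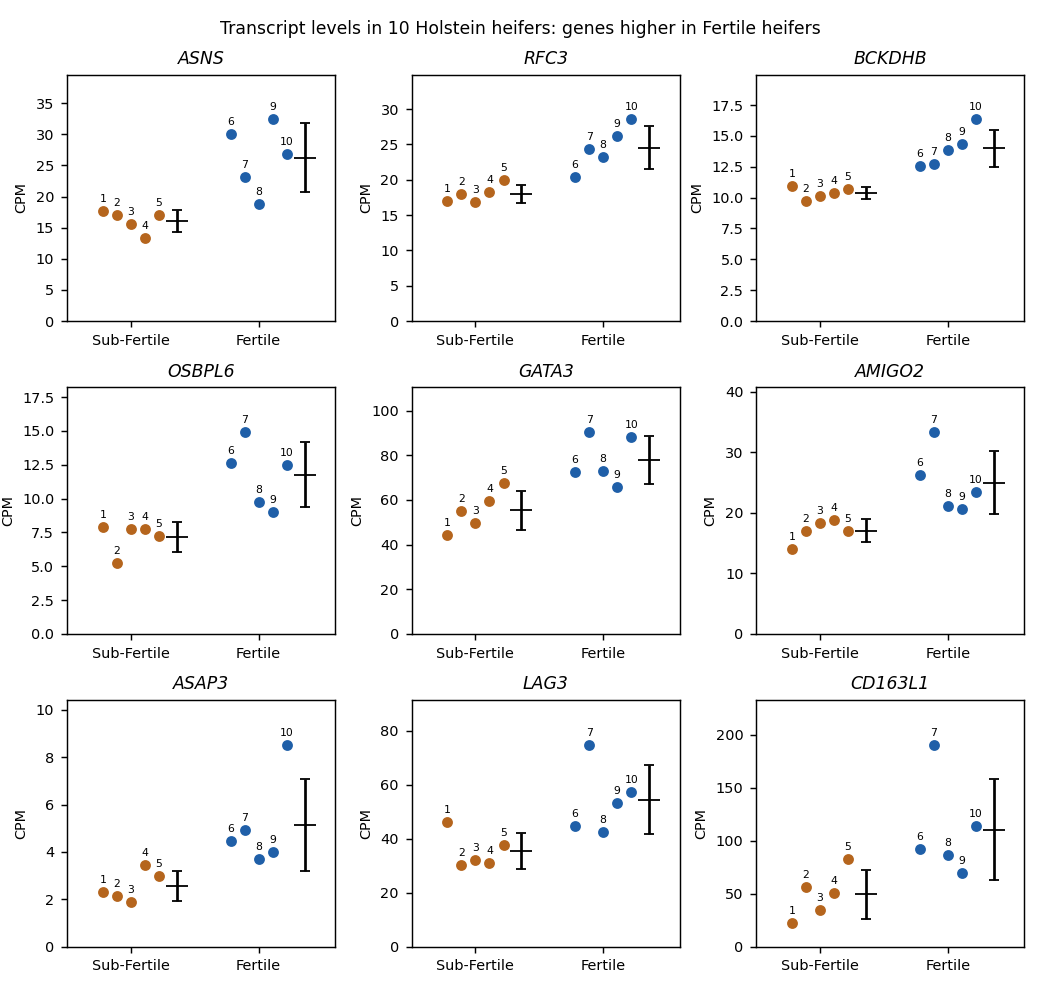
CPM (vertical axes, from 0) of 9 genes in each of the 10 Holstein heifers, numbered beside the points, with the mean and SD of each group of 5 as a black bar. For ASNS, RFC3, BCKDHB, OSBPL6, AMIGO2 and ASAP3 all Fertile heifers lie above all Sub-Fertile heifers, and for GATA3, LAG3 and CD163L1 the groups overlap.

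Among genes with a symbol that were lower in Fertile heifers, ADGRE3, TMEM205 and BST1 had the smallest p. ADGRE3, an adhesion G protein-coupled receptor of myeloid cells (chromosome 7, 11127788 to 11181459), had 43.7, 91.7, 64.2, 43.1 and 97.6 CPM in Sub-Fertile and 29.8, 36.2, 27.4, 28.2 and 29.1 CPM in Fertile heifers. The Fertile heifers were close together, apart from heifer 7, and the Sub-Fertile heifers ranged over more than a factor of 2 while all staying above them. The means were 30.2 ± 3.51 CPM in Fertile and 68 ± 25.8 CPM in Sub-Fertile heifers (SD, n = 5 each). On the log2 scale ADGRE3 differed by -1.18 ± 0.23 (adjusted p = 0.512 in edgeR and 0.00564 in DESeq2).

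FCAR, the Fc receptor for immunoglobulin A (chromosome 18, 62527485 to 62537893), had 9.87, 9.35, 11.8, 4.59 and 5.37 CPM in Sub-Fertile and 4.89, 3.47, 1.04, 3.51 and 2.18 CPM in Fertile heifers. Fertile heifer 6 was just above Sub-Fertile heifer 4, the only crossing of the groups. edgeR estimated a log2 fold change of -1.46 ± 0.38 (adjusted p = 0.512). BST1, an ectoenzyme that acts on NAD and sits on neutrophils and monocytes (chromosome 6, 110872406 to 110901795), had 5.22, 7.58, 11, 8.31 and 7.71 CPM in Sub-Fertile and 5.53, 4.44, 3.42, 3.39 and 5.14 CPM in Fertile heifers, with heifer 1 below heifer 6. BST1 came out at -0.86 ± 0.22 on the log2 scale (adjusted p = 0.512).

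CSF3R, the receptor for granulocyte colony-stimulating factor (chromosome 3, 109418279 to 109429587), had 266, 232, 510.0, 338 and 403 CPM in Sub-Fertile and 303, 184, 113, 172 and 241 CPM in Fertile heifers. Heifer 3 was the highest, and Fertile heifers 6 and 10 were above Sub-Fertile heifer 2. Fertile over Sub-Fertile, CSF3R stood at a log2 fold change of -0.79 ± 0.27. MMP9 (chromosome 13, 74746976 to 74754303) was at 2.52, 4.84, 4.60, 4.01 and 1.91 CPM in Sub-Fertile and 3.08, 0.968, 0.366, 1.30 and 0.839 CPM in Fertile heifers, the lowest value resting on 6 fragments in heifer 8. Heifer 6 was above Sub-Fertile heifers 1 and 5. For MMP9 the log2 fold change was -1.47 ± 0.47 and ran from -2.06 to -1.24 as each heifer was left out. TGM3, a transglutaminase and the third neutrophil marker with a symbol, had a log2 fold change of -1.31 ± 0.65 and an unadjusted p of 0.0691.

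These 3 of the 13 neutrophil markers were the only ones with a symbol, and the other 10 were not analysed here by name. Symbols came from a list ordered by the study's fertility test, so the 3 were not picked independently of the contrast. Their values may not stand for all 13. The median log2 fold change of the 3 was -1.31, or -0.77 without heifer 3. Summed, the 3 came to 118 to 352 CPM in Fertile heifers (median 209) and 261 to 650 CPM in Sub-Fertile heifers (median 401), with overlapping ranges. With their mean log2 CPM as a covariate, an alternative chosen after the data were seen, 83 genes had an unadjusted p under 0.01 instead of 234, and 51 were in both sets. CSF3R and MMP9 enter that covariate and themselves differ between the groups, so part of the fertility contrast can be taken up by the covariate. Under it the log2 fold changes were -1.09 for ADGRE3, -1.97 for TMEM205, -1.07 for FCAR, -0.41 for BST1 and -0.20 for BCL6. The part of the neutrophil share in these differences was not tested. No marker of T cells, monocytes, natural killer cells or red cells had a symbol, and BANK1, the 1 B cell marker that did, had a log2 fold change of -0.23 ± 0.16.

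TMEM205, a membrane protein, had the largest difference among lower genes with a symbol at an unadjusted p under 0.01 (chromosome 7, 15749276 to 15751958). It had 11.6, 8.59, 6.36, 5.23 and 4.10 CPM in Sub-Fertile and 2.04, 3.71, 2.81, 1.64 and 2.02 CPM in Fertile heifers. No Fertile heifer reached the lowest Sub-Fertile heifer, 5, though heifer 7 came near it. On the log2 scale TMEM205 differed by -1.57 ± 0.31 (adjusted p = 0.512 in edgeR and 0.00778 in DESeq2). GSDMA, a gasdermin, which belongs to a family of pore-forming proteins, had 12.6, 16, 18, 9.77 and 4.24 CPM in Sub-Fertile and 7.10, 6.86, 6.16, 3.85 and 2.83 CPM in Fertile heifers, with Sub-Fertile heifer 5 below 3 of the Fertile heifers. edgeR estimated a log2 fold change of -1.20 ± 0.37.

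Other genes were lower in Fertile heifers by smaller amounts. CYTH4, an exchange factor for Arf proteins (chromosome 5, 75703658 to 75734563), had 225, 199.8, 240.1, 215 and 204 CPM in Sub-Fertile and 198, 158, 162, 168 and 186 CPM in Fertile heifers, with no overlap and a log2 fold change of -0.31 ± 0.078. TLE3, a transcriptional co-repressor, had 207, 274, 267, 216 and 208 CPM in Sub-Fertile and 195, 176, 196, 173 and 193 CPM in Fertile heifers, again without overlap, at a log2 fold change of -0.33 ± 0.094. HES1, a repressor induced by Notch signals, did not overlap either, at -0.49 on the log2 scale. There the groups stayed apart by little, with Fertile heifer 7 at 8.71 CPM and Sub-Fertile heifer 5 at 8.77 CPM. The groups overlapped for ZBTB7A, a transcriptional repressor, at -0.35, for PXN, the focal adhesion scaffold paxillin, at -0.28, for MBD6 at -0.34 and for GJB2, a connexin, at -0.83.

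POU2F2, the B cell transcription factor Oct-2 (chromosome 18, 51132250 to 51162438), had 178, 200.3, 221, 174 and 154 CPM in Sub-Fertile and 151, 131, 153, 157 and 114 CPM in Fertile heifers, so that heifer 5 was below heifer 9. POU2F2 came out at -0.40 ± 0.11 on the log2 scale. BCL6, the repressor that drives germinal centre B cells and is also made by myeloid cells (chromosome 1, 79558314 to 79611183), had 60.2, 66.6, 97, 62.3 and 65.4 CPM in Sub-Fertile and 58.8, 47.4, 33.7, 36 and 61.9 CPM in Fertile heifers. Heifer 3 stood far above the others of its group, and Fertile heifer 10 was above Sub-Fertile heifer 1. Fertile over Sub-Fertile, BCL6 stood at a log2 fold change of -0.56 ± 0.19. Of the 28 genes listed for the B cell receptor and germinal centre, 5 had a symbol, 3 lower and 2 higher in mean, the highest at 0.21. At an unadjusted p under 0.05 were 2 of the 5, both lower, beside 96 lower genes among all 1224 with a symbol. The median log2 fold change of the 5 was -0.40, the value of POU2F2 itself, and -0.24 without heifer 3.

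**Figure D3:**
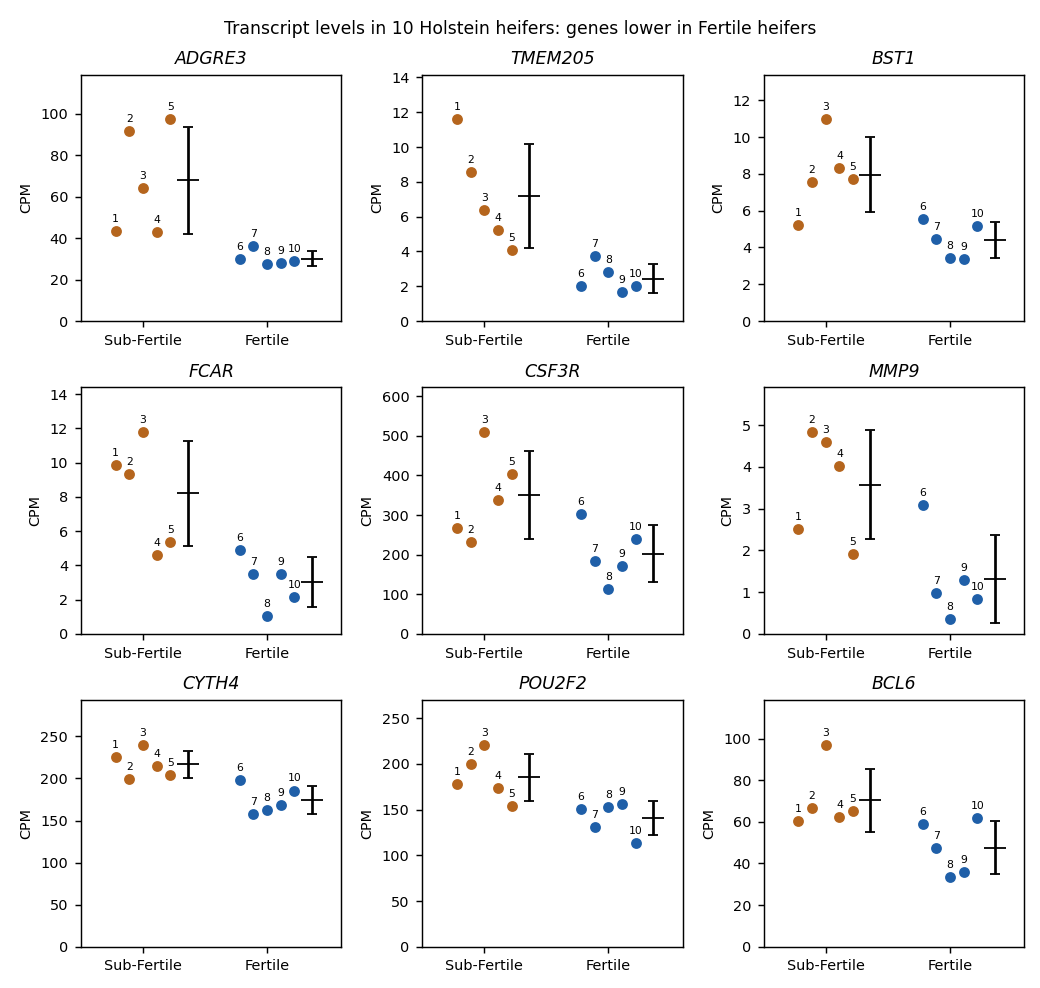
CPM (vertical axes, from 0) of 9 genes in each of the 10 Holstein heifers, numbered beside the points, with the mean and SD of each group of 5 as a black bar. All Fertile heifers lie below all Sub-Fertile heifers for ADGRE3, TMEM205 and CYTH4, and for BST1, FCAR, CSF3R, MMP9, POU2F2 and BCL6 the groups overlap.

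Mitochondrial genes with a symbol had small differences. Of all 1224 genes with a symbol, 59.7% had a log2 fold change above 0, against 48.8% of all tested genes, and 146 (11.9%) were higher at an unadjusted p under 0.05, against 4.86%. The counts of the gene lists are to be read beside these shares. Of the 38 genes of complex I, which takes electrons from NADH, 16 had a symbol. All 16 had a log2 fold change above 0, 6 had an unadjusted p under 0.05 (3 without heifer 3 or heifer 9, 4 without heifer 2 or heifer 10), and the median log2 fold change was 0.15 (0.093 without heifer 10), beside 0.078 over all genes with a symbol. NDUFA2 had 28.1, 27, 25.4, 27.6 and 29.8 CPM in Sub-Fertile and 30.4, 30.4, 30.3, 34.7 and 32.7 CPM in Fertile heifers, which did not overlap (log2 fold change 0.20 ± 0.070). NDUFA10 had 88.5, 81, 81.9, 81.3 and 89.3 CPM in Sub-Fertile and 86.4, 96.4, 91.9, 102 and 111 CPM in Fertile heifers, where heifer 6 was below heifers 1 and 5 (log2 fold change 0.21 ± 0.074).

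Complexes II to IV had 11 of 25 genes with a symbol, all 11 higher in mean, 2 at an unadjusted p under 0.05 (4 without heifer 5, 1 without heifer 9, 2 or 3 otherwise) and a median of 0.14. The 2 were UQCRQ, a subunit of complex III, at 0.28 ± 0.089, and COX7B, a subunit of cytochrome c oxidase, at 0.27 ± 0.099 on the log2 scale. Of the 17 genes of ATP synthase, 7 had a symbol, with 3 at an unadjusted p under 0.05, all higher, and a median of 0.20. ATP5PO, of the stalk, had 119, 114, 109, 125 and 140.0 CPM in Sub-Fertile and 140.2, 141, 139.5, 160.0 and 137 CPM in Fertile heifers, where heifer 9 was far above the other Fertile heifers and Sub-Fertile heifer 5 reached their level. For ATP5PO the log2 fold change was 0.24 ± 0.076, and that of ATP5ME was 0.20 ± 0.070.

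The mitochondrial ribosome, which makes the proteins encoded in mitochondrial DNA, had 19 of 78 genes with a symbol, all higher in mean, with 8 at an unadjusted p under 0.05 (5 without heifer 3 and 4 without heifer 9) and a median of 0.17. MRPS24 had a log2 fold change of 0.29 ± 0.092 and MRPL22 of 0.21 ± 0.068. Summed CPM of the 19 genes was 578 to 673 in Fertile and 549.9 to 587 in Sub-Fertile heifers, with heifer 7 below heifer 1. With the neutrophil markers as a covariate, 0 of the 16 complex I genes and 1 of these 19 had an unadjusted p under 0.05, while the medians of the lists were 0.10 and 0.15. The log2 fold changes under that covariate were 0.19 for NDUFA2, 0.18 for NDUFA10, 0.30 for MRPS24 and 0.18 for MRPL22. Because genes with a symbol were ordered by a test that includes these heifers, the shared direction of such lists is not independent evidence. The 13 proteasome genes with a symbol, of 36, were also all higher in mean, with a median of 0.12 (0.075 without heifer 10) and no member at an unadjusted p under 0.05 in either direction (3 without heifer 1 and 1 without heifer 5, 7 or 8).

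Genes of DNA replication and the cell cycle had the largest median among the longer lists. Of 42 genes, 36 had a symbol, all 36 were higher in mean in Fertile heifers, and the median log2 fold change was 0.36. Of these, 2 had an unadjusted p under 0.05 (11 without heifer 6, 6 without heifer 7 and 1 without any other heifer but 5, where it stayed at 2). Their summed CPM was 1625, 1731, 2428, 2737 and 4447 in Fertile heifers 6 to 10 and 1706, 2499, 2042, 2061 and 1979 in Sub-Fertile heifers 1 to 5. Heifer 10 was far above all others, and heifer 6 was the lowest of the 10. Without heifer 10 the median was 0.058. GINS3, of the replicative helicase and 1 of the 2 members at an unadjusted p under 0.05, was at 0.31 ± 0.14, and at 0.20 without heifer 10.

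The secretory pathway had 12 of 42 genes with a symbol, all higher in mean, 4 at an unadjusted p under 0.05 and a median of 0.17, or 0.081 without heifer 10. Besides ASAP3, SEC61G, a subunit of the channel into the endoplasmic reticulum, had 39.2, 48.3, 40.0, 49.9 and 54.6 CPM in Sub-Fertile and 51.7, 55.2, 60.8, 59.7 and 63.9 CPM in Fertile heifers, with heifer 5 above heifer 6 and a log2 fold change of 0.33 ± 0.10. The lists of fatty acid oxidation, glucose uptake, autophagy and cholesterol synthesis had 3 genes with a symbol each. Of these, only members at an unadjusted p under 0.05 are named. These were HADHA of fatty acid oxidation at 0.37 ± 0.12 and SLC2A1, the glucose transporter GLUT1, at 0.33 ± 0.12. GABARAPL2 of autophagy was at 0.36 ± 0.10, and MVK and SPRING1 of cholesterol synthesis at 0.30 ± 0.12 and 0.17 ± 0.071. The medians of these lists were smaller, at 0.15 for fatty acid oxidation, 0.11 for glucose uptake, 0.11 for autophagy and 0.17 for cholesterol synthesis. In the autophagy list 2 members were higher and 1 lower in mean, and in the others all 3 were higher. TNF, 1 of 2 inflammation genes with a symbol, was at -0.30 ± 0.12. The axonemal dynein and cilium list had 6 of 52 genes with a symbol, 5 of them lower in mean, 2 at an unadjusted p under 0.05 (1 to 3 as each heifer was left out) and a median of -0.22. DNAL1, a light chain of axonemal dynein, was at -0.60 ± 0.21.

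**Figure D4:**
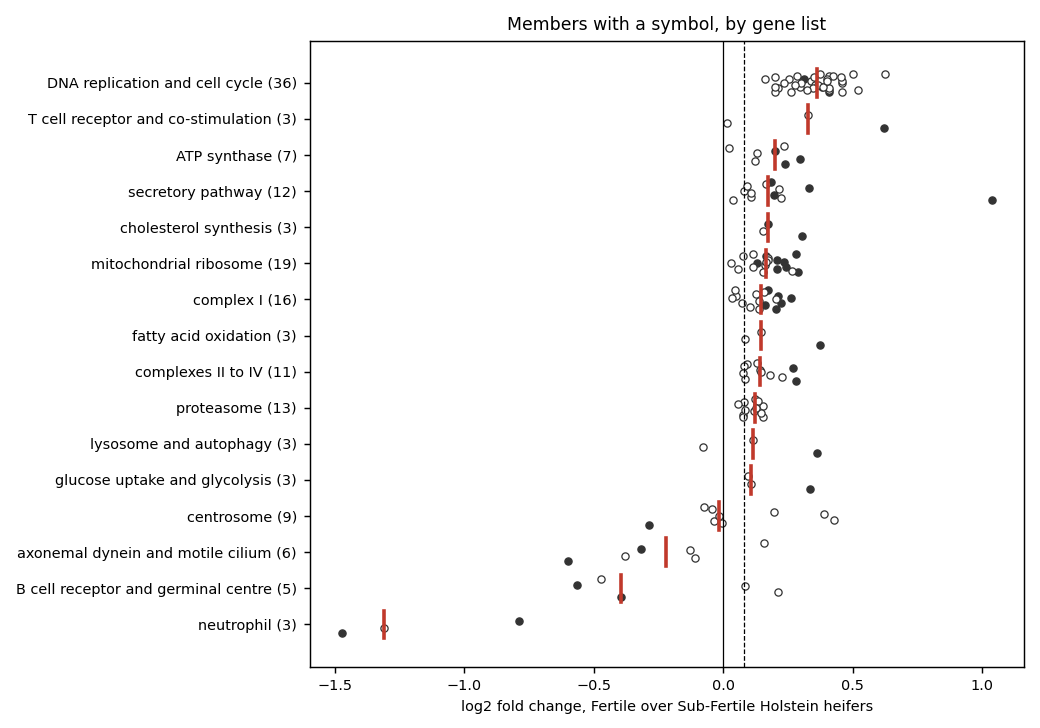
Each circle is a member with a symbol of a gene list, placed by its log2 ratio of Fertile to Sub-Fertile Holstein heifers, filled where the unadjusted edgeR p was under 0.05; the red bar is the list's median, the number of members is in parentheses, and the dashed line is the median over all 1224 genes with a symbol (0.078). Of the lists drawn, those with at least 3 such members, the neutrophil list lies lowest at -1.31 and the DNA replication and cell cycle list highest at 0.36, with few filled circles in the latter.

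The genes that the study singled out over both breeds were examined within Holstein heifers. Only APMAP and DNAI7 were called different in transcript abundance by the study. The others were top genes of a factor in its joint analysis of genotypes, transcripts and proteins. It reported that none of those top genes was differentially expressed when tested alone. ASAP3 and UQCRQ, described above, also belong to that set. APMAP, an adipocyte plasma membrane protein (chromosome 13, 42586269 to 42615935), had 37, 44.5, 40.3, 42.1 and 38.5 CPM in Sub-Fertile and 46.3, 56.3, 44.5, 45.4 and 56.8 CPM in Fertile heifers. The groups did not overlap, with heifer 8 close to heifer 2, and the log2 fold change was 0.30 ± 0.091 (adjusted p = 0.512). DNAI7, of axonemal dynein (chromosome 5, 84818340 to 84887228), had 5.22, 5.90, 6.72, 5.70 and 5.58 CPM in Sub-Fertile and 4.66, 5.41, 4.15, 5.26 and 4.04 CPM in Fertile heifers, with heifers 7 and 9 above heifer 1 and a log2 fold change of -0.32 ± 0.14. Among the others, CCDC34 was at 0.55 ± 0.21, CEP170, a centrosomal protein, at -0.29 ± 0.12 (-0.17 without heifer 2), ATP5MC1 at 0.24 ± 0.11 and MYDGF at 0.21 ± 0.100. Without heifer 10 the last 2 were at 0.13 and 0.13. The centrosome list that holds CEP170 had 9 genes with a symbol, 6 lower and 3 higher in mean. Its median log2 fold change was -0.016 and its highest 0.43. In Angus heifers APMAP was at 0.14 ± 0.072 and DNAI7 at -0.28 ± 0.12, of the same sign as in Holstein heifers. There CCDC34 was at 0.25 ± 0.17, CEP170 at -0.18 ± 0.10, ATP5MC1 at 0.21 ± 0.10 and MYDGF at 0.19 ± 0.092. All these genes were selected on a set of heifers that holds both breeds, so their direction is not independent evidence in either.

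Among genes without a symbol, chosen after their values were seen, ENSBTAG00000006505 had the smallest p of all, with 445, 323, 452, 477 and 405 CPM in Sub-Fertile and 317, 259, 233, 254 and 300.4 CPM in Fertile heifers. Heifer 2 was just above heifer 6, so the groups stayed apart by little, and the log2 fold change was -0.63 ± 0.12. ENSBTAG00000001139 had the lowest log2 fold change with an unadjusted p under 0.01, -2.14 ± 0.49, at levels of 2.45, 2.95, 2.06, 1.16 and 0.848 CPM in Sub-Fertile and 0.524, 0.242, 1.04, 0.170 and 0.262 CPM in Fertile heifers, where heifer 8 was above heifer 5. Its CPM was above 1 only in Sub-Fertile heifers 1 to 4 and Fertile heifer 8, so it met the filter mainly through the group where it was higher. The Fertile levels rested on 3 to 17 fragments, so the size of this difference is uncertain. Higher in Fertile heifers were ENSBTAG00000014111 at 0.67 ± 0.13 and ENSBTAG00000017266 at 0.52 ± 0.11, both without overlap.

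The fertility contrast of the Holstein heifers was then set against that of the 12 Angus heifers in a model of all 4 groups. No gene had an adjusted p under 0.05 for the difference between the breeds' contrasts (edgeR, lowest adjusted p = 0.467), and 1348 of 13072 had an unadjusted p under 0.05. DESeq2 also gave 0 after adjustment. Within Angus, 0 genes passed adjustment and 434 of 13072 had an unadjusted p under 0.05. Among genes with a symbol, the smallest unadjusted p for the difference was that of AMIGO2, with log2 fold changes of 0.55 ± 0.14 in Holstein and -0.11 ± 0.12 in Angus heifers (difference 0.66 ± 0.18, adjusted p = 0.467). BCKDHB had 0.44 ± 0.10 in Holstein and -0.046 ± 0.093 in Angus heifers (adjusted p of the difference 0.467). OSBPL6 had 0.72 ± 0.17 and -0.082 ± 0.15, and C7H19orf44 -0.82 ± 0.25 and 0.13 ± 0.19, in the same order. ADGRE3 was at 0.076 ± 0.31, ASNS at 0.0040 ± 0.15, TMEM205 at 0.023 ± 0.46 and CD163L1 at -0.021 ± 0.37 in Angus heifers, each smaller than its error. They were picked by their p or fold change in Holstein heifers, which favours smaller values in Angus heifers. In edgeR the adjusted p of the difference was 0.467 for ADGRE3, ASNS and TMEM205 and 0.482 for CD163L1.

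Over all tested genes, signs were more often opposite than alike between the breeds. Of the 234 genes under an unadjusted p of 0.01 in Holstein heifers, 197 (84.2%) had the opposite sign in Angus heifers, against 61.0% of all tested genes. In Angus heifers 14 of the 234 had an unadjusted p under 0.05, beside 434 of all 13072 tested genes. The 141 genes higher in Fertile Holstein heifers had a median log2 fold change of 0.42 in Holstein and -0.12 in Angus, and the 93 lower genes of -0.45 and 0.091. Because these genes were selected by their p in Holstein heifers, larger values there than in Angus heifers are favoured by the selection itself. Without Angus heifers 11, 12, 16 and 18, each close to a Holstein heifer in transcript abundance, 201 of the 234 (85.9%) were of opposite sign. All 36 cell cycle, 19 mitochondrial ribosome and 16 complex I genes with a symbol were above 0 in Angus heifers too. So were all 13 proteasome and 12 secretory pathway genes, 10 of 11 in complexes II to IV and 6 of 7 in ATP synthase. The B cell receptor list had 4 of 5 above 0 in Angus and 2 in Holstein heifers. Symbols came from a list ordered by a test over both breeds, which favours like signs. Genes are not independent of each other, so these shares are a description of these heifers.

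**Figure D5:**
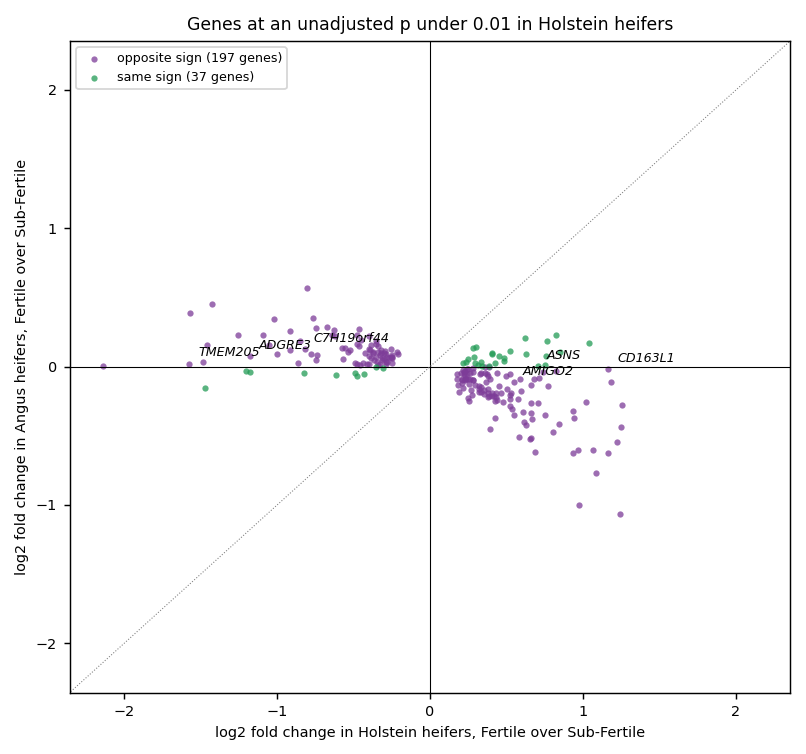
Each point is 1 of the 234 genes under an unadjusted p of 0.01 in Holstein heifers, with its log2 ratio of Fertile to Sub-Fertile in Holstein heifers (horizontal axis) and in Angus heifers (vertical axis); the dotted diagonal marks equal values. Of these genes, 197 (purple) have opposite signs and 37 (green) the same sign, and the Angus value is the smaller in size for 232 of the 234. The genes were selected by their p in Holstein heifers, which by itself favours a smaller Angus value.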

How the data were processed

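The deposited table held raw counts of fragments per Ensembl gene, made by the authors with hisat2 against ARS-UCD1.2, Samtools and biobambam2 (duplicates removed) and featureCounts. The versions of these tools and the strand setting are not given in the sources used here. Whether fragments of antisense genes were counted apart is therefore not known. Library preparation was Illumina Stranded mRNA.

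Genes whose CPM, scaled by TMM, exceeded 1 in 5 or more of the 10 Holstein heifers were fitted with edgeR 4.0.16 in R 4.3.3 (quasi-likelihood, robust, library size the sum of counts, Benjamini-Hochberg over all 13072 genes). DESeq2 1.42.0 was an alternative. A 4-group model of 22 heifers gave the Angus and breed-difference contrasts. Printed CPM values were unscaled. Scripts were tested on simulated data.

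Named genes were, among those with a symbol, the 12 with the smallest p in each direction, the 4 largest fold changes in each direction at p under 0.01, genes the study names, up to 2 per gene list at p under 0.05 and the 4 smallest breed-difference p, which gave 55, of which 1 is not reported here. Members and lists were chosen with earlier results of these data known. Symbols and coordinates came from the study's annotation list, of which 1401 rows were given and 1229 had a symbol. Globin and mitochondrially encoded shares were not analysed here for lack of names.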

Additional observations from a re-analysis of the deposited data

Results flagged for a closer look

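Of 126 sets of 5 heifers examined (the levels of named genes and 4 library measures in each group), 7 held a heifer whose gap to its nearest neighbour exceeded 0.71 of the range of its group (Dixon's 95% value for 5), and chance gives about 1 in 20. Fertile heifer 10 had a total count of 38118108, against 12393746 to 17682328 in the other Fertile heifers. In the same heifer the 10 most abundant genes held 2.87% of counts, against 3.69% to 4.003%. Sub-Fertile heifers 2 and 3, not flagged by this rule, were similarly deep, at 42371919 and 35869046. Their 10 most abundant genes held 2.87% and 2.98% of counts. ASAP3 in Fertile heifer 10 was at 8.53 CPM, against 3.72 to 4.92 CPM. ADGRE3 in Fertile heifer 7 was at 36.2 CPM, against 27.4 to 29.8 CPM, still below every Sub-Fertile heifer. ATP5PO in Fertile heifer 9 was at 160.0 CPM, against 137 to 141 CPM. OSBPL6 in Sub-Fertile heifer 2 was at 5.26 CPM, against 7.21 to 7.87 CPM. BCL6 in Sub-Fertile heifer 3 was at 97.0 CPM, against 60.2 to 66.6 CPM. No named gene differed between the breeds' contrasts at an adjusted p under 0.05.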

How the results depend on the processing

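With edgeR, 0 genes passed an adjusted p of 0.05 under every filter, scaling, covariate and omission tried; DESeq2 gave 17 by the Wald and 17 by the likelihood ratio test. At an unadjusted p under 0.01, DESeq2 gave 243 and 240 higher genes and 256 and 255 lower genes, in that order of tests, against 141 and 93. Lower genes at that p numbered 140 with TMM factors, 159 without the filter on low counts and 159 without heifers 5 and 6. At an unadjusted p under 0.05 there were 923 lower genes without that filter. With the neutrophil marker covariate, added after seeing the data, there were 373 higher and 195 lower genes at a p under 0.05 and 67 and 16 at a p under 0.01; with the first principal component, also added later, there were 1002 and 242 lower genes at these limits. The cause of these changes was not tested. Leaving out each heifer in turn gave 450 to 712 higher and 281 to 965 lower genes at a p under 0.05, and 71 to 176 and 30 to 227 at a p under 0.01. With 5 heifers a group, the p with 1 heifer left out is tied by arithmetic to the p with all 10, so it is not given as a sign of stability. The difference on the second principal component, 0.38, reversed to -2.94 with 2000 genes and -11.6 with all genes, and ranged from -6.90 to 5.16 as heifers were left out; that on the first ranged from -6.65 to -0.38. The second turned negative without heifer 3 (-0.54), 8 (-1.29) or 10 (-6.90). The second component correlated with that of the main setting at 0.46 with all genes and -0.72 without heifer 10 (its sign is arbitrary), so the axis itself differed there and the change of sign is not that of 1 quantity. No fold change of a named gene changed sign. The neutrophil less lymphocyte covariate was not run, since no T cell marker had a symbol. No paired analysis was possible because the groups hold different heifers and no label matches a heifer of 1 group with a heifer of the other.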

Other observations

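Platelet markers with a symbol, 2 of 6, came to 37.5 to 73.1 CPM in Fertile and 33.8 to 47.2 CPM in Sub-Fertile heifers, with log2 fold changes of 0.26 ± 0.18 for ITGA2B and 0.56 ± 0.43 for GP9. CCR3 of eosinophils was at 0.46 ± 0.23 and FCER1A of basophils at -0.47 ± 0.25, with neither at an unadjusted p under 0.05. IL1B was at -0.71 ± 0.37. The T cell list for activation held IL2RA at 0.33 ± 0.16 and MALT1 at 0.016 ± 0.082.

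With 5 heifers a group, log2 fold changes had a median standard error of 0.13, with quartiles of 0.085 and 0.21. Symbols covered 1224 of 13072 tested genes, and a gene left out of the text may still differ. Lists for interferon response and antigen presentation had 0 genes with a symbol. The cytosolic ribosome, N6-methyladenosine, immediate early and steroid response lists had 1 or 2, with none at an unadjusted p under 0.05.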
